A study of Mus musculus with 8 samples.

Results

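The 8 hippocampal libraries of this series fell into 4 that were rich and 4 that were poor in transcripts of the choroid plexus, the secretory tissue of the brain ventricles. The classes were chosen by measured values: a library was called choroid plexus-rich where Ttr, the gene of transthyretin, stood above 10000 normalized counts, and choroid plexus-poor where it stood below. Anesthesia replicate 1 and Control replicates 2, 3 and 4 were rich. Anesthesia replicates 2, 3 and 4 and Control replicate 1 were poor. Because Ttr sorted the libraries, the differences between rich and poor libraries are given as a description of which transcripts went with Ttr, with no p-value for any gene.

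The hippocampi came from male C57BL/6 mice labelled as PND28, and each library is 1 mouse. Mice in the Anesthesia group had received ketamine, an NMDA receptor blocker and anesthetic, at 35 mg per kg by intraperitoneal injection once a day for 5 days beginning at PND16, and RNA was taken 1 week after the last injection. Mice in the Control group received saline on the same days according to the protocol and the paper, although their sample titles call them untreated. The labels name the same strain for both groups and no mutation or transgene. The tissue is labelled as hippocampus throughout, and no label records how much of the ventricle wall or choroid plexus stayed with each sample. The deposited values are counts that the authors normalized with DESeq2 size factors, so every column sums to a similar total (18702634 to 19231119). The reads behind them were put at approximately 15400000 to 22200000 per library. This is a rough figure, since whole reads could not be recovered from the values.

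The choroid plexus is a fold of cuboidal epithelium over leaky, fenestrated capillaries that hangs into the ventricles. Its epithelium makes most of the cerebrospinal fluid by moving ions, bicarbonate and water from blood to ventricle, and it secretes transthyretin, the carrier of thyroid hormone and of retinol-binding protein. In the lateral ventricle it is attached along the fimbria, at the edge of the hippocampus. Homeodomain factors such as Otx2, Lmx1a and Msx1 set up this epithelium from the dorsal midline of the embryonic brain, and ependymal cells with motile cilia line the ventricle wall beside it. In bulk tissue such as this, fewer cells of a type and less RNA per cell cannot be told apart.

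Ttr (ENSMUSG00000061808) stood at 53003 normalized counts in Anesthesia replicate 1, and at 24368, 61582 and 61503 in Control replicates 2, 3 and 4. In the poor libraries it stood at 393, 182 and 2679 in Anesthesia replicates 2, 3 and 4 and at 145 in Control replicate 1. The rich libraries averaged 50114 ± 17629.9 and the poor libraries 849.7 ± 1224 (SD, n = 4 each). The library just inside the threshold was Control replicate 2 and the library just outside it was Anesthesia replicate 4, and the former still held 9.10-fold more Ttr than the latter. In Control replicate 3, the richest library, Ttr alone made up 0.329% of all normalized counts, against 0.000772% in Control replicate 1. Splitting the libraries at the largest gap in Folr1, or at the largest gap in the median of the choroid plexus gene lists, gave the same classes. Folr1 belongs to these lists, which were chosen with earlier results of these data known, so this is no test of the classes.

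The rich class held 1 of 4 Anesthesia and 3 of 4 Control libraries. This uneven split was not distinguishable from an even one with so few mice (Fisher's exact test, two-sided, p = 0.4857). Class and treatment were nevertheless not balanced, and differences within each labelled group are given for the gene lists and for a few genes. The label of the class held for its other markers. Folr1 (ENSMUSG00000001827, chromosome 7, 101858331 to 101870788 on GRCm38), the high-affinity folate receptor that carries folate into cerebrospinal fluid, had 526 normalized counts in Anesthesia replicate 1 and 207, 532 and 645 in Control replicates 2, 3 and 4. In the poor libraries Folr1 had 3.94, 3.23 and 32.0 in Anesthesia replicates 2, 3 and 4 and 10 in Control replicate 1. The classes did not overlap, and the mean of the rich libraries was 38.9-fold that of the poor libraries.

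Kl (chromosome 5, 150952607 to 150993817), which encodes the anti-ageing factor klotho, had 1317 normalized counts in Anesthesia replicate 1 and 783, 1534 and 1513 in Control replicates 2, 3 and 4. The poor libraries held 299.7, 174 and 323 in Anesthesia replicates 2, 3 and 4 and 266 in Control replicate 1. Kl was thus far from absent in the poor libraries, unlike Folr1, and its log2 difference was 2.26 (standard error 0.23). Klotho is also known from hippocampal neurons.

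**Figure D1:**
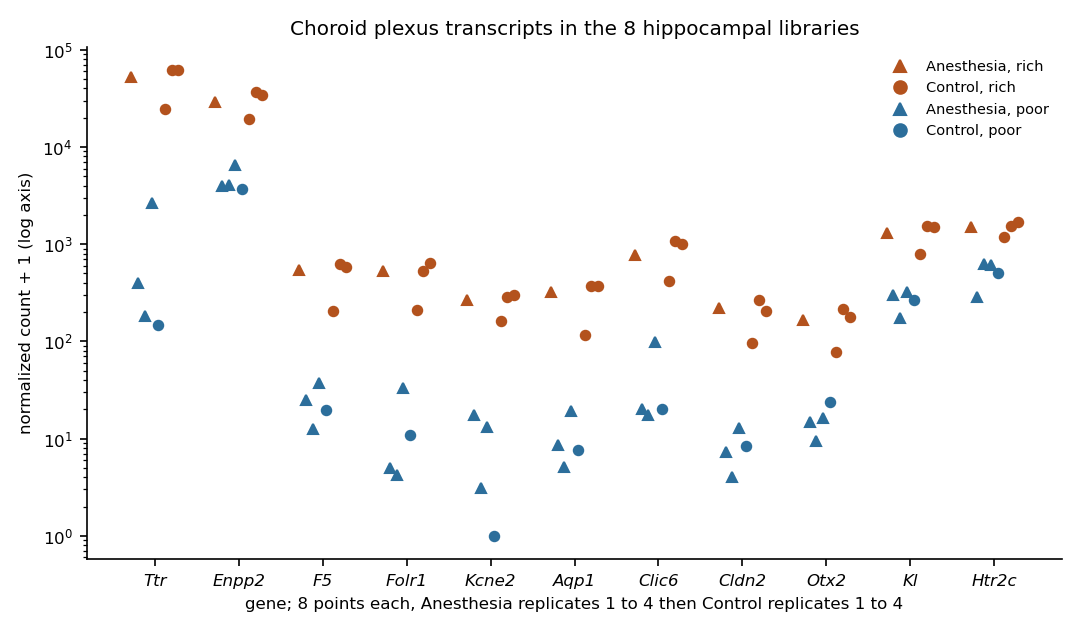
Normalized counts plus 1, on a log axis, of 11 choroid plexus transcripts, with 1 point per library in the order Anesthesia replicates 1 to 4 and Control replicates 1 to 4. Orange points are rich and blue points poor libraries, and triangles are Anesthesia and circles Control mice. For every gene drawn the 4 rich libraries lie above the 4 poor libraries, and Anesthesia replicate 4, with 2679 of Ttr, is the poor library with the most Ttr.

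Beyond Ttr, 59 genes known from the choroid plexus were followed in 6 lists by role: secreted proteins and carriers, nutrient transport, ion and fluid transport, epithelium and matrix, transcription factors, and receptors and enzymes. All 59 were in the table, and 58 had a mean of at least 10 normalized counts over the 8 libraries and entered the fit. The exception was the tight junction gene Cldn3, with 12.8 ± 8.60 in the rich and 2.80 ± 1.01 in the poor libraries (SD, n = 4 each). Of the 58, 10 had a poor mean under 10 and passed this filter only through the rich libraries. The median log2 difference of the 58 was 1.61, against -0.002 over all genes tested. In all, 57 of 58 were higher in the rich libraries, and in 46 the lowest rich value lay above the highest poor value. Across the 18864 genes tested without Ttr, 601 (3.19%) had rich values all above the poor values and 423 (2.24%) had rich values all below them. In a limma fit across all genes, used here only as a common cut on size relative to spread, 99 genes (0.525%) were higher in the rich libraries at an adjusted p under 0.05 and 4 (0.0212%) were lower. The 58 included 36 of the genes past that cut, all of them higher. Since this contrast chose the libraries, these counts describe the classes and test nothing.

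The difference was present within each labelled group. The median of the 58 genes was 1.74 between the 1 rich and 3 poor Anesthesia libraries. Between the 3 rich and 1 poor Control libraries it was 1.63. In both groups 56 genes were higher in the rich libraries, which for the 46 without overlap follows from their separation. With treatment as a term in the fit, 24 of the 58 were past the cut in place of 36. Over all 18864 genes tested without Ttr, 37 were higher past the cut in that fit, in place of 99. The rich libraries were not equal. Control replicate 2 was the lowest rich library in 53 of the 58 genes, as it was for Ttr, and Anesthesia replicate 4 was the highest poor library in 28.

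**Figure D2:**
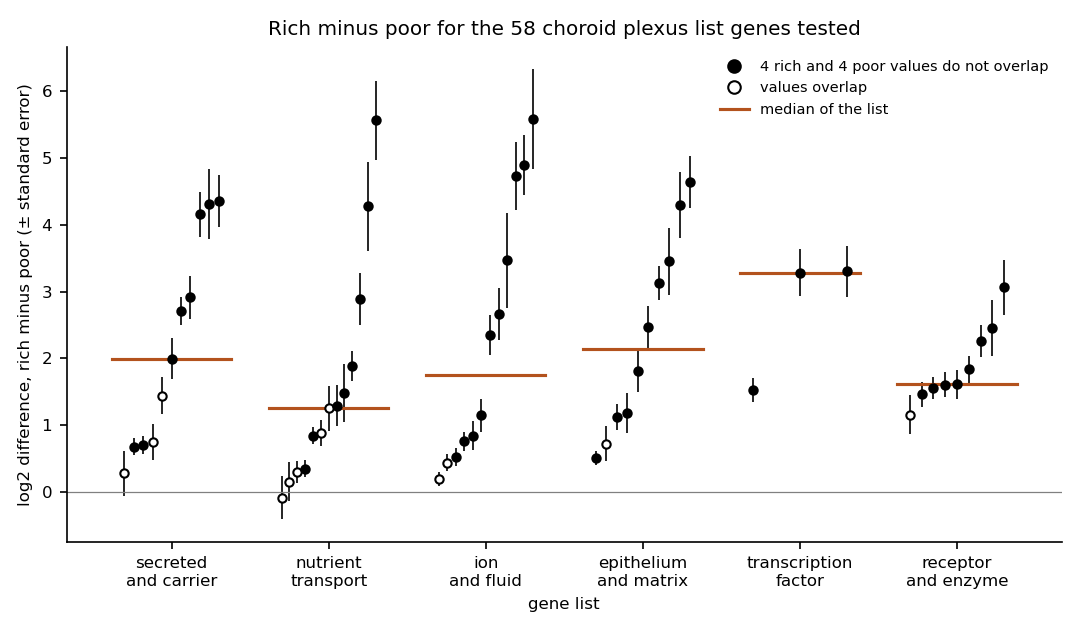
Log2 difference between the 4 rich and 4 poor libraries, with its standard error, for the 58 choroid plexus genes tested, grouped by role. Filled points are the 46 genes whose rich and poor values do not overlap, open points the others, and orange lines mark the list medians, which run from 1.25 for nutrient transport to 3.29 for transcription factors.

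Among secreted proteins and carriers, all 11 genes were higher in the rich libraries (median log2 difference 2.00), 8 without overlap and 7 past the cut. The most abundant was Enpp2 (chromosome 15, 54838901 to 54952892), the gene of autotaxin, which makes the signalling lipid lysophosphatidic acid and is also made by oligodendrocytes. It had 29323 normalized counts in Anesthesia replicate 1, 19287, 36673 and 34654 in Control replicates 2, 3 and 4, and between 3710.1 and 6486 in the poor libraries. The rich libraries stood 6.58-fold higher on the means, with a base level in the poor libraries that Folr1 lacked. F5, the gene of coagulation factor V, had 547 in Anesthesia replicate 1, 206, 622 and 578 in Control replicates 2, 3 and 4, and 24.1, 11.4, 36.5 and 18.8 in the poor libraries (Anesthesia replicates 2, 3 and 4 and Control replicate 1). Its log2 difference of 4.36 (standard error 0.39) was the largest of this list. Wfdc2, a secreted protein of the protease inhibitor family, followed at 4.31, with a poor mean of 1.41 and 1 poor library at 0. The augurin gene 1500015O10Rik had a log2 difference of 4.15, and Sostdc1, an inhibitor of BMP and Wnt signalling, of 2.91.

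Not every secreted factor separated the classes. Igf2, a growth factor of the plexus that is also abundant in the meninges, had 487 ± 143 in the rich and 289 ± 100.1 in the poor libraries (SD, n = 4 each), and the classes overlapped. Its difference was 1.02 within the Anesthesia group and 0.15 within the Control group. Igfbp2, which binds insulin-like growth factors, overlapped as well (701 in Control replicate 1, a poor library, against 686 in Control replicate 2, a rich library), as did Bmp7, with a log2 difference of 0.28 (standard error 0.33). Igf2, Igfbp2 and Bmp7 are also known from the meninges, whose own gene list is described further on. Tcn2, the vitamin B12 carrier, showed a smaller but separate difference, 371 ± 63.5 against 229 ± 18.4 (SD, n = 4 each).

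The 12 ion and fluid genes, the machinery of cerebrospinal fluid secretion, were all higher in the rich libraries, 10 without overlap and 6 past the cut (median 1.75). Kcne2 (chromosome 16, 92292389 to 92298129), a potassium channel subunit of the apical membrane, had 265 normalized counts in Anesthesia replicate 1 and 162, 285 and 299 in Control replicates 2, 3 and 4. The poor libraries held 16.4, 2.13 and 12.2 in Anesthesia replicates 2, 3 and 4, and Kcne2 was listed at 0 in Control replicate 1. This gave the largest log2 difference of all 58 genes, 5.58 (standard error 0.75), and also the widest error among the genes past the cut in this list. Aqp1, the water channel of the plexus, had 320.4 in Anesthesia replicate 1, 115, 367 and 367 in Control replicates 2, 3 and 4, and 7.56, 4.12, 18.4 and 6.70 in the poor libraries in the same order as above. Clic6, a chloride channel protein, had 767 in Anesthesia replicate 1 and 418, 1070.0 and 995 in Control replicates 2, 3 and 4. In the poor libraries Clic6 had 19.3, 16.5 and 18.9 in Anesthesia replicates 2 and 3 and Control replicate 1, and 97.5 in Anesthesia replicate 4, which stood apart from the other poor libraries.

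Kcne2 and Clic6 are neighbours, with 187607 bases between them on chromosome 16. The bicarbonate cotransporter gene Slc4a5 (log2 difference 3.47), the cation channel gene Trpv4 (2.67) and the potassium channel gene Kcnj13 (2.36) also had rich values above all poor values. Genes of this machinery that other brain cells use at a high level differed little. Slc12a2, the sodium-potassium-chloride cotransporter NKCC1, had 4436 ± 729 against 3263 ± 561 (SD, n = 4 each), with overlap, and Slc4a10, a sodium bicarbonate transporter of neurons and plexus, had 5550.2 ± 441 against 4886 ± 745.

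Among the 13 nutrient transport genes 12 were higher in the rich libraries, 8 without overlap and 5 past the cut (median 1.25). After Folr1, whose log2 difference was 5.56 (standard error 0.59), the largest differences belonged to the metalloreductase gene Steap1 (4.27), the organic anion transporter gene Slco1a5 (2.89) and the glucose transporter gene Slc2a12 (1.89). Slc31a1, the copper importer, had 538 ± 93.3 against 297 ± 23.6 (SD, n = 4 each), a smaller difference with no overlap. At the other end were the retinol receptor gene Stra6 (log2 difference 0.15, standard error 0.29) and the monoamine transporter gene Slc29a4 (-0.08, standard error 0.32), the only member of the 58 that was not higher in the rich libraries. Both overlapped, and for both the difference was smaller than its standard error.

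All 10 epithelium and matrix genes tested were higher in the rich libraries (median 2.14), 9 without overlap and 7 past the cut. Cldn2 (chromosome X, 139800828 to 139811386), the tight junction claudin of leaky epithelia, had 221 normalized counts in Anesthesia replicate 1, 96.4, 265 and 206 in Control replicates 2, 3 and 4, and between 3.00 and 11.8 in the poor libraries. Krt8 and Krt18, the keratin partners of simple epithelia, lie 23698 bases apart on chromosome 15 and had log2 differences of 3.45 and 4.29. Both were almost missing from the poor libraries, with means of 5.07 normalized counts each. The collagen VIII genes Col8a1 (3.13) and Col8a2 (2.47) differed more than the collagen IX gene Col9a3 (1.12). Ezr, the gene of the microvillus protein ezrin, is used by many cell types and differed by only 0.51 (standard error 0.11), yet its classes did not overlap.

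The 3 transcription factors all passed the cut without overlap. Otx2 (chromosome 14, 48657677 to 48673819), a homeodomain factor needed to form the plexus, had 166 normalized counts in Anesthesia replicate 1, 76.8, 213 and 175 in Control replicates 2, 3 and 4, and between 8.43 and 22.8 in the poor libraries. Lmx1a, a factor of the embryonic roof plate, had a log2 difference of 3.30 with a poor mean of 3.07. Msx1 differed less, by 1.53 (standard error 0.18), from a poor mean of 83.7 ± 11.6 (SD, n = 4). The low poor values of Otx2 and Lmx1a set them apart from Msx1, which had a base level in every library.

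The promoters of the 3 genes with the largest differences among the members with a RefSeq window, and of Otx2 itself, are printed because these transcripts moved together and Otx2 is a DNA-binding member of the group. Each is a RefSeq window of 300 bases on GRCm38.p6, 250 before and 50 after a transcription start, read 5′ to 3′ on the strand of the gene. Capitals mark TAATCC or its reverse complement GGATTA, the core bound by OTX-type homeodomains. The windows are, for Kcne2, chr16:92292139-92292438 (plus strand, the more upstream of 2 windows), for Aqp1, chr6:55336049-55336348 (plus strand), for Cldn2, chrX:139800558-139800857 (plus strand) and for Otx2, chr14:48665060-48665359 (minus strand, the window of 4 that holds the motif).
Kcne2: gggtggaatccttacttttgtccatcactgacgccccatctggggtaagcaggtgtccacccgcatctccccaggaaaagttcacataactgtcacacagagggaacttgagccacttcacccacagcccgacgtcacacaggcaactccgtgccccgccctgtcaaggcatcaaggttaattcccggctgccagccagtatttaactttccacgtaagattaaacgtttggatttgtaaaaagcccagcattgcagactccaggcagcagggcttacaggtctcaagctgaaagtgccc
Aqp1: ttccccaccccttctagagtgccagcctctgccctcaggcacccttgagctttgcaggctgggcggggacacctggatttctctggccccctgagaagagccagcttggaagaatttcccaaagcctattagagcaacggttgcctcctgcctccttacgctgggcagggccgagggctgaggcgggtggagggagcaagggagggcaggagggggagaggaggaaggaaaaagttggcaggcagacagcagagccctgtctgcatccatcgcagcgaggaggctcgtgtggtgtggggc
Cldn2: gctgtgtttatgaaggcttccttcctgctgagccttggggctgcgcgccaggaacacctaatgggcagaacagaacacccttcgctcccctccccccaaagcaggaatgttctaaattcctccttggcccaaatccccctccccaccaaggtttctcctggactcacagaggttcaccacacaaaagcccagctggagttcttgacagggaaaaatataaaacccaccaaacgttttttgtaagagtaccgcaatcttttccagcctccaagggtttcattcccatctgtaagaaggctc
Otx2: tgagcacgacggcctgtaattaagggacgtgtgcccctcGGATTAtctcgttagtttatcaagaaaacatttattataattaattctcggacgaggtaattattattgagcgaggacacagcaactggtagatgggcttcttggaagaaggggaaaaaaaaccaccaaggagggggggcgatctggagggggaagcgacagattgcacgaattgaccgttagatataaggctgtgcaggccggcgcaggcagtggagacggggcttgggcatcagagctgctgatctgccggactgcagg
The windows of Kcne2, Aqp1 and Cldn2 hold neither form of the motif, and the Otx2 window holds GGATTA. RefSeq windows were matched for 48 of the 59 genes, and in 4 of these 48 (8.33%) at least 1 window held the motif, which were Ace, Car14, Igf2 and Otx2. Over all 27025 genes with a window the share was 8.14%. Counted by window, 4 of 69 windows (5.8%) of the choroid plexus genes held the motif, against 7.06% of all 32851 windows. The share was thus near that of genes at large by gene and somewhat lower by window, and this says nothing of where the factor binds.

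The 9 receptor and enzyme genes were all higher in the rich libraries, 8 without overlap and 8 past the cut (median 1.61). Htr2c (chromosome X, 146962513 to 147197277), a serotonin receptor abundant in the plexus, had 1512 normalized counts in Anesthesia replicate 1, 1196, 1555 and 1700.1 in Control replicates 2, 3 and 4, and 288, 622, 609.5 and 499.8 in Anesthesia replicates 2, 3 and 4 and Control replicate 1. The rich libraries were evenly high, 2.95-fold above the mean of the poor libraries, and Htr2c is also known from neurons. The prolactin receptor gene Prlr had a log2 difference of 2.46, the angiotensin-converting enzyme gene Ace of 1.56 and the kinase scaffold gene Cab39l of 1.61. Lepr, the leptin receptor gene, was the exception of the list, with 230.3 ± 68.2 in the rich and 106 ± 42.7 in the poor libraries (SD, n = 4 each), and the classes overlapped.

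Several choroid plexus transcripts kept nearly fixed proportions to Ttr among the rich libraries. For each rich library the mean of the 4 poor libraries was subtracted from a gene, and the rest was expressed per 1000 normalized counts of Ttr treated in the same way. Kl came to 20.2 in Anesthesia replicate 1 and to 22.0, 20.9 and 20.6 in Control replicates 2, 3 and 4, a coefficient of variation of 3.78%. The augurin gene 1500015O10Rik came to 13.5, 13.3, 12.4 and 13.8 in the same order, and Folr1 to 9.84, 8.29, 8.56 and 10.4. Ttr itself varied by 35.2% over the same 4 libraries, so for these genes the amount per Ttr varied less than Ttr did. Over the 46 choroid plexus genes without overlap the median coefficient was 16.3%, from 3.78% for Kl to 98.3% for the folate carrier gene Slc19a1. These ratios share the Ttr value of each library and are a description.

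**Figure D3:**
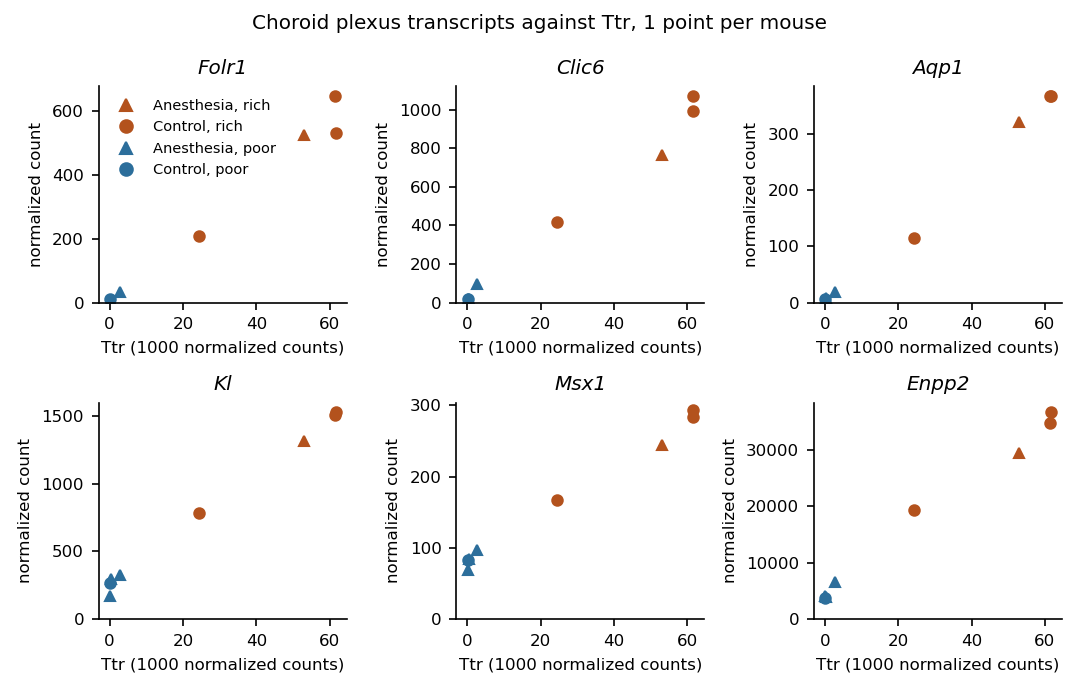
Normalized counts of 6 choroid plexus transcripts against Ttr, with the axis in units of 1000 normalized counts, 1 point per mouse, with colours and shapes for class and treatment. Folr1, Clic6 and Aqp1 start near 0 in the poor libraries, while Kl, Msx1 and Enpp2 start from a base level, and in each panel Control replicate 2 lies between the poor libraries and the other rich libraries.

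Without any subtraction, the ratios to Ttr varied widely among the poor libraries. Folr1 per 1000 of Ttr was 8.51 to 10.5 in the rich libraries, 10.01, 17.8 and 11.9 in Anesthesia replicates 2, 3 and 4 and 69.2 in Control replicate 1. For Kcne2 the rich range was 4.63 to 6.64, and the poor libraries had 41.6, 11.7 and 4.55 in Anesthesia replicates 2, 3 and 4, with Kcne2 listed at 0 in Control replicate 1. For Aqp1 the rich range was 4.73 to 6.05, and the poor libraries had 19.2, 22.6, 6.87 and 46.2 in the same order. Anesthesia replicate 4, the poor library nearest to the threshold, lay near the rich range for these 3 genes, and Anesthesia replicate 2 lay within it for Folr1 but not for Kcne2 or Aqp1. For Clic6 all 4 poor libraries were above the rich range of 14.5 to 17.4, with 36.4 in Anesthesia replicate 4 as the lowest. Ratios in the poor libraries rest on low values of the gene, of Ttr or of both.

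Genes with a mean of at least 50 were ranked by the SD, over all 8 libraries, of their log2 ratio to Ttr. Because Ttr differed so widely between the classes, this rank favours genes that were low in the poor libraries. The smallest SDs belonged to Folr1 (1.06), Kcne2 (1.16), Clic6 (1.26), Aqp1 (1.31), Prr32 (1.43), Cldn2 (1.53), F5 (1.61), Krt18 (1.69), 1500015O10Rik (1.72) and Mfrp (1.89). Of these 10 genes, 8 were already in the lists and Prr32 and Mfrp were not. All 10 had a poor mean under 50 and reached the filter only through the rich libraries. Kl, with its base level in the poor libraries, was not among them. Prr32, a little-studied gene on chromosome X, had 133 normalized counts in Anesthesia replicate 1, 47.7, 164 and 131 in Control replicates 2, 3 and 4, and 2.18, 2.07, 12.3 and 2.83 in Anesthesia replicates 2, 3 and 4 and Control replicate 1. Mfrp, a membrane frizzled-related protein best known from the retinal pigment epithelium, had 211 ± 85.7 against 10.8 ± 5.49 (SD, n = 4 each).

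Of the 99 genes past the cut, 63 were in none of the 6 choroid plexus lists. In all 99 the rich and poor values did not overlap, so being higher within both labelled groups followed from that separation. With treatment as a term 35 of them were also past the cut, where that fit placed 37 genes. By a fixed rule of size, the 15 genes outside every list with the largest positive differences among those with a mean of at least 50 and no overlap were Prr32 (4.53), Mfrp (4.22), Rbm47 (2.77), Wdr86 (2.77), Drc7 (2.75), Sulf1 (2.27), Abca4 (2.20), Fap (2.18), Epn3 (2.04), Sema3b (2.00), Gm44250 (1.96), Tuba1c (1.93), Mdfic (1.84), Wfikkn2 (1.55) and Zfp185 (1.54). This rule did not ask for the cut, and Rbm47, Fap, Sema3b, Tuba1c and Wfikkn2 were not past it. Of the 15, only Sulf1 and Abca4 had a poor mean of at least 50, and the others reached that mean only through the rich libraries. For Sema3b the difference was 2.48 within the Anesthesia group and 0.64 within the Control group, and for Abca4 it was 2.57 and 1.52. Tuba1c is uncertain, because its sequence is close to that of other tubulin genes. Sulf1 trims sulfate from heparan sulfate chains at the cell surface, with 883 ± 278 against 190.3 ± 94.1 (SD, n = 4 each). Abca4 moves retinoids across membranes and had 322 ± 43.8 against 72.7 ± 27.4. Drc7 belongs to the dynein regulatory complex of motile cilia, Sema3b is a secreted semaphorin and Wfikkn2 a secreted binder of growth factors.

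On the lower side, 4 genes were past the cut. Zim1 (chromosome 7, 6671269 to 6696450), an imprinted zinc finger gene, had 50 normalized counts in Anesthesia replicate 1, 45.6, 47.8 and 47.2 in Control replicates 2, 3 and 4, and 83.0, 124, 123 and 87.8 in Anesthesia replicates 2, 3 and 4 and Control replicate 1. The rich libraries were tightly grouped at 47.7 ± 1.80 and the poor ones at 104 ± 21.9 (SD, n = 4 each). Gm20427, a processed transcript, had a log2 difference of -1.18. Kcnj11, the pore subunit of the ATP-sensitive potassium channel (-0.58), and the cadherin gene Cdh12 (-0.43) were the other 2, named after their values were seen because the count was so small. With treatment as a term no gene was past the cut on this side, so all 4 calls were lost. The other 8 of the 10 largest negative differences under the same rule were 1110002E22Rik (-1.02), Gm45799 (-0.99), AC124169.1 (-0.94), Fam129a (-0.83), Gm44792 (-0.74), Gm43166 (-0.71), Vwa3b (-0.68) and Gm16316 (-0.67). Of the 10, only Fam129a, Gm44792 and Vwa3b had a rich mean of at least 50, and the others reached that mean only through the poor libraries. Gm16316 is annotated as antisense and is uncertain, because the sources name different library kits and do not settle whether strand was kept.

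Neighbouring tissues and other cell types were followed with 20 further lists. The ependyma and motile cilia list moved most. Of its 24 genes tested, 22 were higher in the rich libraries (median log2 difference 0.65), 5 without overlap (Rsph1, Dynlrb2, Spag6l, Pifo and Riiad1) and 0 past the cut. Its summed level ranged from 2064 to 2806.4 normalized counts in the rich libraries and from 1403.6 to 2226.8 in the poor ones. Anesthesia replicate 4 was the highest poor library in 19 of the 24 genes, and its list level of 0.39 on the log2 scale lay within the range of the rich libraries (0.16 to 0.67). The part of ependymal cells in the differences above was not tested.

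Among vessel genes 2 members separated the classes, while the list as a whole was level. Of 13 endothelial genes 7 were higher in the rich libraries, with a median of 0.03 and summed levels of 6504.4 to 7987.4 in the rich and 6505 to 8140.8 in the poor libraries. Plvap, which forms the diaphragms of fenestrated capillaries such as those of the plexus, had 38.6 normalized counts in Anesthesia replicate 1, 33.6, 41.9 and 29.2 in Control replicates 2, 3 and 4, and 17.2, 22.6, 16.1 and 18.4 in Anesthesia replicates 2, 3 and 4 and Control replicate 1. The classes did not overlap, but Plvap was not past the cut (log2 difference 0.91, standard error 0.22). Emcn, the gene of endomucin, had 139 ± 21.8 against 95.1 ± 12.9 (SD, n = 4 each), also without overlap. Cldn5, the claudin of the tight brain vessels, pointed the other way with a log2 difference of -0.26.

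The meninges and stroma list, which marks the tissue that covers the brain and enters the plexus, did not follow the classes. Of its 19 genes 11 were higher in the rich libraries, with a median of 0.007 and no gene outside the overlap, and its summed level was 6610.8 to 14971.3 in the rich and 5696.3 to 13884.4 in the poor libraries. The median was 0.33 within the Anesthesia group and -0.36 within the Control group. The pericyte and smooth muscle, blood and border macrophage lists had medians of 0.05, 0.16 and -0.10, with no gene outside the overlap. The ranges of the classes overlapped for each of these lists.

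Neuronal and glial lists of the hippocampus differed little. The medians were 0.18 for CA1 pyramidal neuron, -0.03 for CA3 pyramidal neuron, 0.02 for GABAergic interneuron, 0.05 for astrocyte and -0.04 for microglia genes. Of the 12 dentate granule neuron genes 1 was higher in the rich libraries (median -0.26), and all 12 overlapped, with a median of -0.007 within the Anesthesia group and -0.52 within the Control group. All 12 oligodendrocyte genes were higher in the rich libraries (median 0.20) but overlapped, and the median was -0.11 within the Anesthesia group and 0.63 within the Control group. The oligodendrocyte list thus changed sign between the labelled groups. Single genes outside the overlap were Tmem119 of the microglia list and Kcnq1ot1 of the nuclear-retained list, both lower in the rich libraries. Medians for immediate early (-0.08), nuclear-retained (-0.11), mitochondrially encoded (0.07) and cytosolic ribosomal protein genes (0.05) were small. The genes higher in the rich libraries were 1 of 11, 2 of 8, 9 of 13 and 24 of 25 in the same order. The largest difference of the mitochondrially encoded list was 4.35, for a gene whose classes overlapped.

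Regions next to the hippocampus gave no shared pattern. The thalamus list had a median of 0.10, with Lef1 alone outside the overlap, and the striatum list of -0.03, although 1 striatal gene, Ppp1r1b, which encodes DARPP-32, was past the cut with 385 ± 61.1 against 206 ± 46.7 (SD, n = 4 each). The 8 medial habenula genes tested had a median of 0.25, and 1 library stood apart. Control replicate 2 stood at 1.25 on the log2 scale relative to the mean of all libraries, and the other 7 libraries between -0.43 and 0.02. That library was also the rich library with the lowest choroid plexus transcripts.

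**Figure D4:**
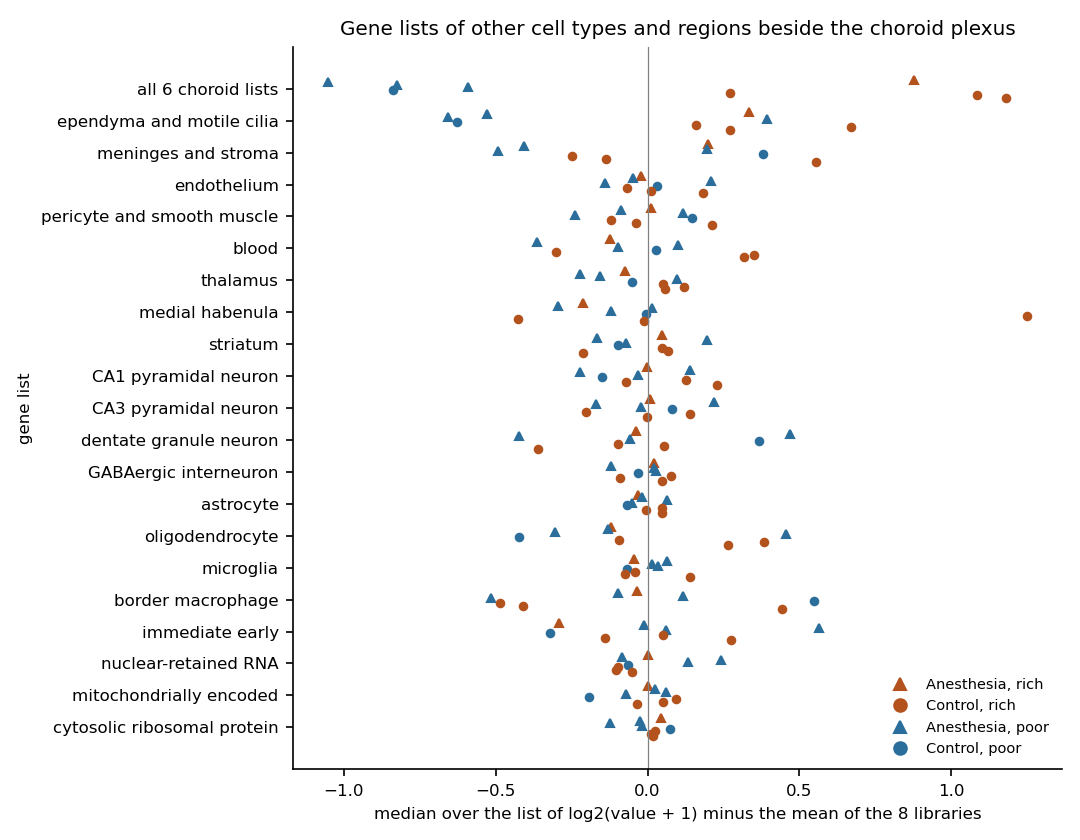
Level of each gene list in each library, as the median over its genes of log2(value + 1) minus the mean of the 8 libraries, with colours for class and shapes for treatment. The choroid plexus lists separate the classes (0.27 to 1.18 in rich, -1.05 to -0.59 in poor libraries), the ependyma list does so except for Anesthesia replicate 4, and for the medial habenula Control replicate 2 stands alone at 1.25.

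In the comparison set by the labels, which did not use Ttr, the choroid plexus transcripts were lower in the Anesthesia group but none was past the threshold. Ttr averaged 14064 ± 25984 normalized counts over the Anesthesia mice and 36899.5 ± 30125 over the Control mice (SD, n = 4 per group). Its log2 difference of -2.59 did not exceed the variation among mice (exact permutation test, two-sided, p = 0.4286). Of the 58 choroid plexus genes 57 were lower in the Anesthesia group, with a median of -0.83, and 3 had an unadjusted p under 0.05. None was called, and the adjusted p-values from limma lay between 0.622 and 0.992. Over all 18865 genes tested limma also called 0 genes (0%), with 1513 at an unadjusted p under 0.05. The paper used DESeq2 on these groups at the same threshold and did report differentially expressed genes. The count of 0 is that of limma on the log2 values, and the reason for the difference from the paper was not tested. Among the 58 choroid plexus genes the largest differences were those of Folr1, with 141 ± 257 against 349 ± 292 (log2 difference -2.77, standard error 1.60, limma adjusted p = 0.671), Cldn2 (-2.27, standard error 1.31) and Steap1 (-2.26, standard error 1.31).

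The classes were also fitted as a term beside treatment. The class is a split on Ttr, and these genes went with Ttr, so such a fit takes up their shared difference by construction and is no test of it. With the term the median of the 58 genes was 0.01 in place of -0.83, and 25 of the 58 were lower in place of 57. Between rich libraries alone, 1 Anesthesia against 3 Control, the median was 0.09, and between poor libraries alone, 3 against 1, it was -0.04. For Folr1 the log2 difference moved from -2.77 to 0.01. The number of genes at an unadjusted p under 0.05 over the whole table was 805 with this term and 1513 without it. With 1 rich Anesthesia and 1 poor Control library, an effect of ketamine on the choroid plexus and an uneven presence of the tissue in the samples cannot be told apart.

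**Figure D5:**
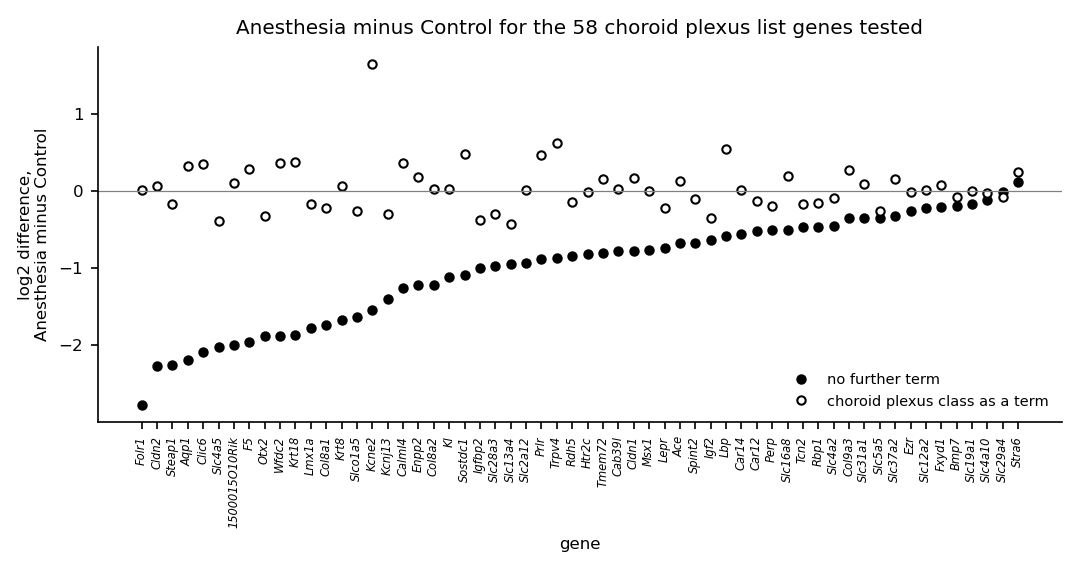
Log2 difference between the Anesthesia and Control groups for the 58 choroid plexus genes tested, in order of size, without a further term (filled points) and with the choroid plexus class as a term (open points). Without the term 57 of 58 points lie below 0, and with it the points scatter around 0 with 25 below. Kcne2, which is listed at 0 in Control replicate 1, is the open point farthest from 0, at 1.65.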

How the data were processed

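Hippocampal RNA of 8 mice, 4 per labelled group, was analysed as deposited. The authors ran Salmon 1.1.0 on GRCm38 with GC bias correction, summed transcripts per gene with tximport and normalized with DESeq2 1.30.1, so the deposited table holds a size-factor-normalized signal in place of raw counts. The labels and the paper name different library kits. Whole reads could not be recovered, since per library only 47.5% to 70.6% of low values fell within 0.1 of one, and no count model was fitted. Symbols and positions came from GENCODE M21, which held 20784 of 20802 identifiers.

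Values were compared as log2(value + 1) with limma 3.58.1 (mean-variance trend, R 4.3.3) over 18865 genes whose mean reached 10, with Benjamini-Hochberg adjustment over all of them and a threshold of 0.05; 1937 genes fell under the filter. Log2 differences understate the change of genes with low values. The classes, gene lists and the rule for named genes were chosen with earlier results of these data known. That rule took list members, then the largest differences without overlap at a mean of at least 50. It also took the 10 genes with the smallest SD of the log2 ratio to Ttr. Scripts were tested on simulated data. Alternatives were another pseudocount, other filters and scalings, other ways to class the libraries, treatment or class as a term, a replicate block, and each mouse left out. Nothing in the labels states a shared litter or batch. The limma p-values set each difference against the spread between these mice, with variances moderated across genes.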

Additional observations from a re-analysis of the deposited data

Results flagged for a closer look

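The 14 genes given library by library and 27 gene list levels were examined for a library far from the other 3 of its labelled group or class, by the gap to its nearest neighbour divided by the range. Of 164 groups of 4, 22 held such a library. A rate of 1 in 20 would give 8.2, but this holds only for independent quantities not chosen on these data. Several genes were named because they separated the classes. Each library also counts in both a labelled group and a class, so 22 and 8.2 are not comparable. Most of the 22 come from the rule that set the classes, which left Anesthesia replicate 1 as the only rich Anesthesia library. In the Anesthesia group it stood apart for Ttr (0.953), Folr1 (0.945), Kl (0.87), Enpp2 (0.9002), Kcne2 (0.946), Aqp1 (0.955), Clic6 (0.892), F5 (0.953), Cldn2 (0.959), Otx2 (0.956), Prr32 (0.922) and the secreted and carrier list (0.837).

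Anesthesia replicate 4 stood above the other poor libraries for Ttr (0.902), Enpp2 (0.865), Clic6 (0.965), Prr32 (0.925) and the ependyma and motile cilia list, at 0.39 against -0.66 to -0.53 (0.879). Control replicate 1 had more Zim1 than the other Control mice, 87.8 against 45.6 to 47.8 normalized counts (0.948). Control replicate 1 is the only poor Control library. Zim1 was named because its poor values all lay above its rich values, so this flag follows largely from that choice. For other cell types, Control replicate 4 was highest for the microglia list, at 0.14 against -0.07 to -0.04, among both the Control and the rich libraries (0.859), and lowest of the rich libraries for the striatum list (0.931). Anesthesia replicate 2 was lowest of the Anesthesia libraries for the GABAergic interneuron list, at -0.12 against 0.02 to 0.03 (0.943).

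For 2 lists every rich library differed from every poor library in opposite directions in the labelled groups, a contrast that was not tested. The immediate early list was lower in the rich library within the Anesthesia group (-0.50) and higher within the Control group (0.38). The cytosolic ribosomal protein list was higher within the Anesthesia group (0.099) and lower within the Control group (-0.057).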

How the results depend on the processing

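The median of the choroid plexus genes between rich and poor libraries kept its sign under every alternative run, and was 1.25 with at least 10 in every library, which leaves out members that passed the filter through the rich libraries, and 1.53 to 1.80 with each mouse left out. The count of genes higher past the cut was 99, and 60 with at least 10 in every library, 37 with treatment as a term and 38 to 116 with each mouse left out, the lowest without Control replicate 4, with 46 without Anesthesia replicate 1 and 45 without Control replicate 3. The count of lower genes was 4, and 0 with treatment as a term, 0 with the replicate block and 1 to 7 with each mouse left out. Counts without overlap were 803 to 1199 higher and 623 to 1076 lower with a mouse left out, and 1474 and 1140 with both Anesthesia replicate 4 and Control replicate 2 left out, an alternative chosen after seeing the data. They grow because fewer libraries have to separate. Between Anesthesia and Control mice the count of called genes was 0 to 2 with each mouse left out (2 without Control replicate 1), the choroid plexus median was -1.25 to -0.57, and it turned to 0.015 with the choroid plexus class as a term, which takes up the shared difference of these genes by construction. The p for Ttr was 0.0857 to 0.6286 with each mouse left out. Between mice with the same replicate number, deviations from the group means had correlations of -0.242, -0.109, -0.182 and 0.019. These deviations also carry the choroid plexus class, so they do not settle whether such mice shared a litter or batch. With the replicate block, 67 genes were higher past the cut, 0 were called between Anesthesia and Control and 1084 had an unadjusted p under 0.05. The cause of the other shifts was not tested. Low values limit the precision of genes near 0 in the poor libraries.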
